A study of Mus musculus with 2 samples.

Results

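A list of 39 collagen genes beyond types I and X was examined for CG methylation in primary mouse osteoblasts with and without the TET enzymes. Type IV chains other than Col4a1 to Col4a4 are not in this list, nor is any gene of chromosome X. The members were taken by gene symbol, and all 39 matched one of the 21938 protein-coding genes of GENCODE M21 on GRCm38, over 14 chromosomes. Members and classes were chosen with earlier results of these data known, so shares set against all genes are a description. Primary osteoblasts came from calvarial bone of 3-day-old C57BL/6 mice and were cultured for 3 days. The WT library was labelled wild type, and the TCKO library combined Prx1-Cre, a Cre active in mesenchymal cells, with floxed alleles of the 3 TET genes (Tet1fl/fl, Tet2fl/fl and Tet3fl/fl), which it deletes. WGBS was made on 1 library per genotype, so there was no replicate, and every test below compares the 2 libraries and not the genotypes. The number of mice behind each library was not given in the sources used here.

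Collagens are extracellular proteins in which 3 chains wind into a triple helix. Fibrillar collagens assemble into banded fibrils, type IV collagen forms the network of basement membranes, FACIT collagens bind to the surface of fibrils, type VI collagen forms beaded microfibrils around cells, and others form networks, cross the membrane or anchor epithelia to the matrix. Osteoblasts secrete mainly type I collagen, while types II, IX and XI are known from cartilage. TET enzymes oxidise 5mC and so open a path to its removal, and CG methylation close to a transcription start site (TSS) often goes with a silent gene, whereas the bodies of transcribed genes are commonly methylated. Bisulfite sequencing reads 5mC and 5hmC alike as methylated.

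A level here is the share of methylated calls among all calls, pooled over the CG cytosines of a region, and a difference is TCKO minus WT in percentage points. Nearby CpGs can be called from the same read. The tests, intervals and limits below treat each call as independent, so they understate the error where reads are shared. The WT library held 261127589 CG calls and the TCKO library 223645082, with 70.2% and 76.3% methylated, so the TCKO library as a whole was 6.06 points higher. A TSS window of a member (2 kb on either side of the gene's 5′ end) held 150 to 936 WT calls and 88 to 814 TCKO calls. Over the targeted genes, the longest stretches that lost calls held 755 WT and 70 TCKO calls in Tet1, 122 and 13 in Tet2, and 133 and 9 in Tet3, so some reads over these stretches remained in the TCKO library. In TSS windows of marker genes, WT levels ran from 3.38% to 76.8% over 7 osteoblast genes, from 9.23% to 62.2% over 4 chondrocyte genes, from 66.1% to 77.4% over 3 blood genes, from 40.6% to 77.6% over 3 endothelial genes and from 34.1% to 67.01% over 3 muscle genes. The TCKO ranges were 18.97% to 82.6%, 10.9% to 73.7%, 68.9% to 85.4%, 46.7% to 89.7% and 30.5% to 75.4%. A changed mix of cells and changed methylation within cells cannot be told apart in such bulk DNA, and the part of cell mix in the results below was not tested.

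The bins of 200 bp closest to a collagen TSS that gained methylation are shown first, since they show single CpGs that changed near a start site. A bin counted as gaining when it held at least 4 CG cytosines, a mean of at least 4 calls per cytosine in each library, a gain of 40 points or more and an adjusted p below 0.05 (2-sided Fisher exact test, Benjamini-Hochberg over all testable bins of the genome). Of 104 testable bins within the TSS windows, 4 gained (3.85%), in Col5a2, Col6a3 and Col8a1, against 2.95% of the testable bins within 2 kb of a TSS over all protein-coding genes, so their number was near the background. Their GRCm38 plus-strand sequences are given with each CpG in capitals.
Col5a2, chr1:45503601-45503800: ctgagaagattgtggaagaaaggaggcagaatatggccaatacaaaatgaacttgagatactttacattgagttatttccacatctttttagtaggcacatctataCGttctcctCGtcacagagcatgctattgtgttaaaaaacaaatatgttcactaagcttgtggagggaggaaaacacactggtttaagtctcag
Col5a2, chr1:45504001-45504200: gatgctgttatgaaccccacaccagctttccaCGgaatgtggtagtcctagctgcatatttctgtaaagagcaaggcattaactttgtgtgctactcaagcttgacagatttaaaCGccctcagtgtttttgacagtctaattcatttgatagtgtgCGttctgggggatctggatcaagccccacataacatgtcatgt
Col6a3, chr1:90845201-90845400: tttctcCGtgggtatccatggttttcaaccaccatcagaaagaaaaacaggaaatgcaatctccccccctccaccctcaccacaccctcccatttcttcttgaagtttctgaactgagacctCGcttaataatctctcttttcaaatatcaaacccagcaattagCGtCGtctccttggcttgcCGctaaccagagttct
Col8a1, chr16:57755601-57755800: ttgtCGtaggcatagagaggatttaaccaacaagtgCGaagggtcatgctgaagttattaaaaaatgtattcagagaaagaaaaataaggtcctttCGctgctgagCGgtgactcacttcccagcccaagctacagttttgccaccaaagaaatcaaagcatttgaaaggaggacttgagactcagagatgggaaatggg

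All 4 bins lie upstream of their gene on its own strand. Col5a2 encodes the alpha 2 chain of type V collagen, a fibrillar collagen that joins type I fibrils and limits their diameter. Its bin centred at -418 bp from the TSS rose from 4% of 50 WT calls to 70% of 30 TCKO calls, and its bin centred at -818 bp rose from 10% of 30 to 66.7% of 27. Every CpG of both bins was higher in TCKO. In Col8a1, a short-chain collagen that forms hexagonal networks, the bin centred at -963 bp held 0 methylated of 58 WT calls. In TCKO 68.2% of 44 calls were methylated (adjusted p = 8.97e-13 by the Fisher exact test). Its 4 CpGs had 14 or 15 WT calls each and stood at 53.8% to 77.8% in TCKO. A count of 0 in 58 allows a WT level of up to 5.17% if calls are independent, and more where CpGs share reads. This bin holds the string TGACTCA, the consensus of AP-1 factors. In Col6a3, the alpha 3 chain of type VI collagen, the bin centred at -1329 bp rose from 28.6% of 42 to 79.7% of 64 calls. Its first CpG went from 0 of 9 to 11 of 18 methylated calls, while its second was already methylated in 5 of 7 WT calls.

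**Figure D1:**
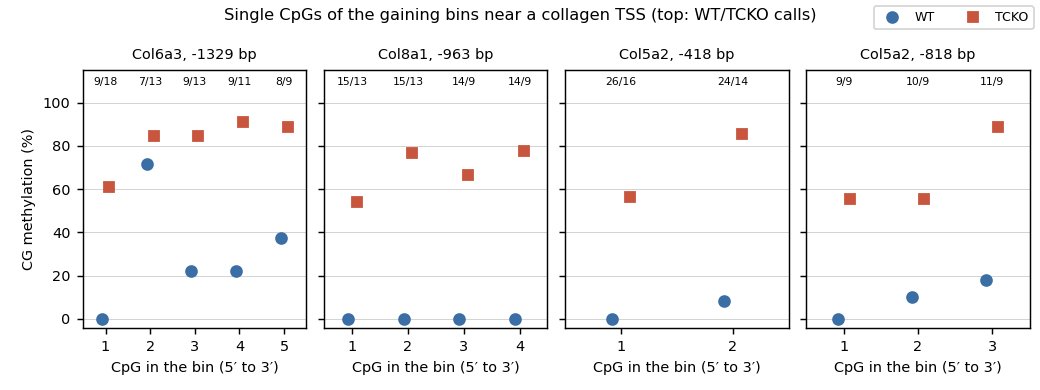
Methylation level (%) of each CpG, both strands together, in the 4 gaining bins near a collagen TSS, numbered along the plus strand, with WT as circles, TCKO as squares and the calls of WT and TCKO at the top. All CpGs were higher in TCKO, and the 4 CpGs of the Col8a1 bin had no methylated call in WT.

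Over the whole TSS windows, 6 of 39 members gained 20 points or more with an adjusted p below 0.05 (Fisher exact test, adjusted over all genes tested), against 3.85% of the 21883 protein-coding genes tested. None lost as much, against 0.151% of all genes. The 6 were the 3 chains of the main type VI collagen (Col6a1, Col6a2, Col6a3), the FACIT genes Col16a1 and Col20a1, and Col28a1. The median difference of the members was 11.2 points, with median levels of 39.1% in WT and 50.9% in TCKO, and the median difference over all genes tested was 4.72. With pooled calls 32 windows were higher in TCKO and 7 lower, while over all genes 16479 of 21590 windows were higher. A setting added after the data were seen compared each cytosine covered in both libraries with itself, weighted by the depth in both (Mantel-Haenszel). In it 38 windows were higher. Of the 39 members 6 passed, against 2.50% of all genes in that setting, and 5 of these were also among the 6 named above. The number of all genes higher in that setting was not counted. In a narrow window from 1 kb upstream to 100 bp downstream, 3 members (7.69%) were called, against 7.76% of all genes, so the members did not exceed the background in that window.

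**Figure D2:**
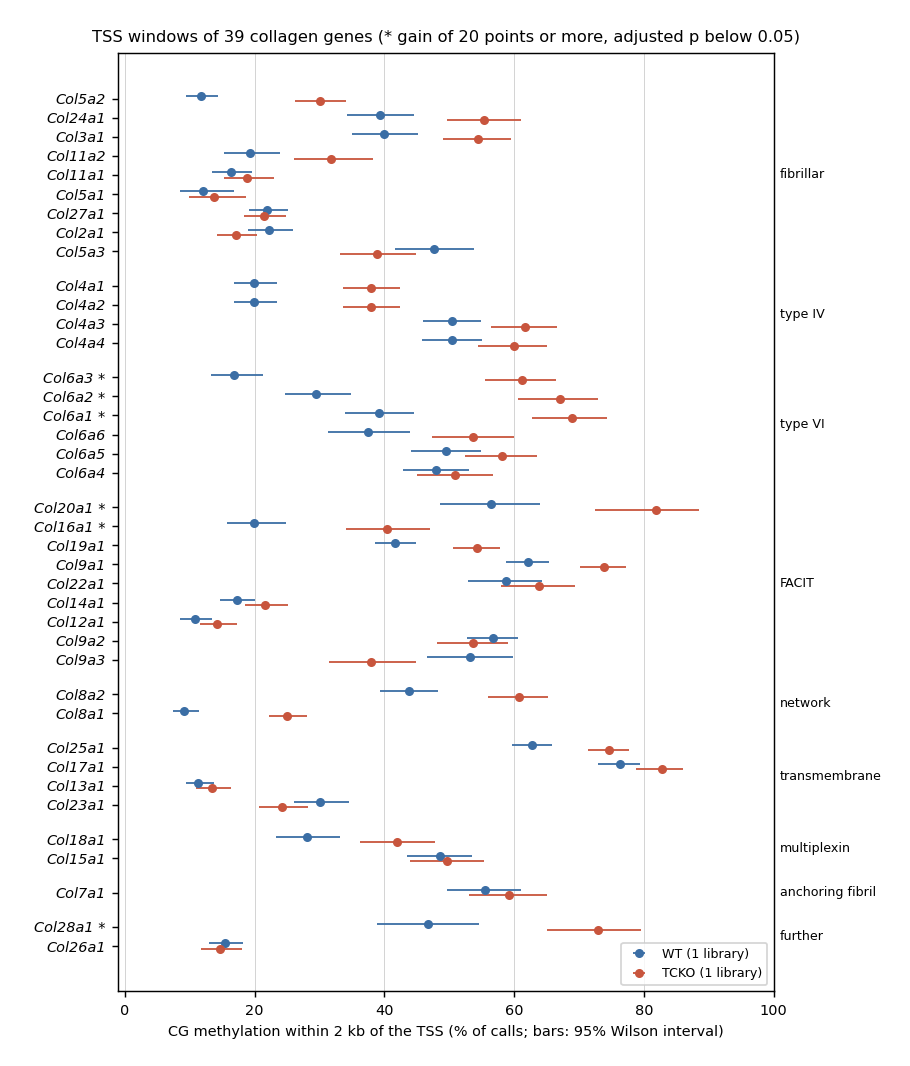
CG methylation (% of calls) within 2 kb of the TSS of the 39 genes by collagen class, with 1 WT and 1 TCKO library each and 95% Wilson intervals for counting error. The largest gaps between the libraries are those of Col6a3, Col6a2 and Col6a1, and 7 genes, among them Col9a3 and Col5a3, lie lower in TCKO.

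Type VI collagen was the class with the most called windows, 3 of 6, and a median difference of 23.02 points. The Col6a3 window (chr1, gene from 90765923 to 90843971, minus strand) stood at 16.9% of 343 WT calls and 61.2% of 304 TCKO calls. The gain of 44.3 points (95% interval 37.2 to 50.7, adjusted exact p = 5.75e-29) was larger than in 99.98% of genes. In the 500 bp downstream of its TSS, WT had 0 methylated of 100 calls (a limit of 3%) and TCKO 54.7% of 64, so the gain reached across the start site, whereas the 300 bp just upstream went from 1.96% of 51 to 19.4% of 31. Restricting the window to 1 kb upstream and 100 bp downstream left a difference of 18.7 points, below the minimum of 20.

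Col6a1, the alpha 1 chain (chr10, gene from 76708792 to 76726168, minus strand), stood at 39.1% of 327 WT calls and 68.9% of 241 TCKO calls, a gain of 29.7 points (95% interval 21.6 to 37.3, adjusted exact p = 7.45e-11). Its gain near the start lay upstream of the TSS: the 500 bp upstream went from 8.33% of 84 to 60% of 35 calls, while the 500 bp downstream held no methylated call in either library (50 and 27 calls, which allow up to 6% and 11.1%). The 300 bp upstream of the Col6a1 TSS held 6 CpGs and went from 4.62% of 65 to 53.6% of 28 calls. Their plus-strand sequence, in which the TSS lies just beyond the left end, is given with each CpG in capitals because it marks this edge.
Col6a1, chr10:76726169-76726468: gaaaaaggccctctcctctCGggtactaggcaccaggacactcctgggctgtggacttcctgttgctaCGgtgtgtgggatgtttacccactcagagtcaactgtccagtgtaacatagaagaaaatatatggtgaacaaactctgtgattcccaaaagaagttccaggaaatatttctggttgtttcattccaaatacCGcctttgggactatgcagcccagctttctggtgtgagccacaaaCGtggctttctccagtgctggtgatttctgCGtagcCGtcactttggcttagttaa

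The 4 CpGs farthest from the TSS stood at 50% to 66.7% in TCKO on only 6 calls each, and 1 of them had 3 of 11 methylated calls in WT. Both CpGs nearest to the TSS had no methylated call, on 11 and 8 WT calls but only 2 TCKO calls at each. The pooled levels of this stretch do not correct for such uneven depth. Col6a2, the alpha 2 chain (chr10, gene from 76595762 to 76623630, minus strand), stood at 29.5% of 305 WT calls and 67.1% of 219 TCKO calls, a pooled gain of 37.6 points (95% interval 29.2 to 45.2, adjusted exact p = 9.58e-16). Depth was uneven across this window, and the 500 bp downstream of the TSS held 127 WT calls and 21 TCKO calls, all unmethylated. With depth-matched cytosines the Col6a2 difference was 16.4 points, with the mean of single cytosines 11.1, and with the 2 kb upstream alone 16.1, each below the minimum of 20. The other type VI chains were not called, with 16.3 points in Col6a6, 8.55 in Col6a5 and 2.98 in Col6a4.

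**Figure D3:**
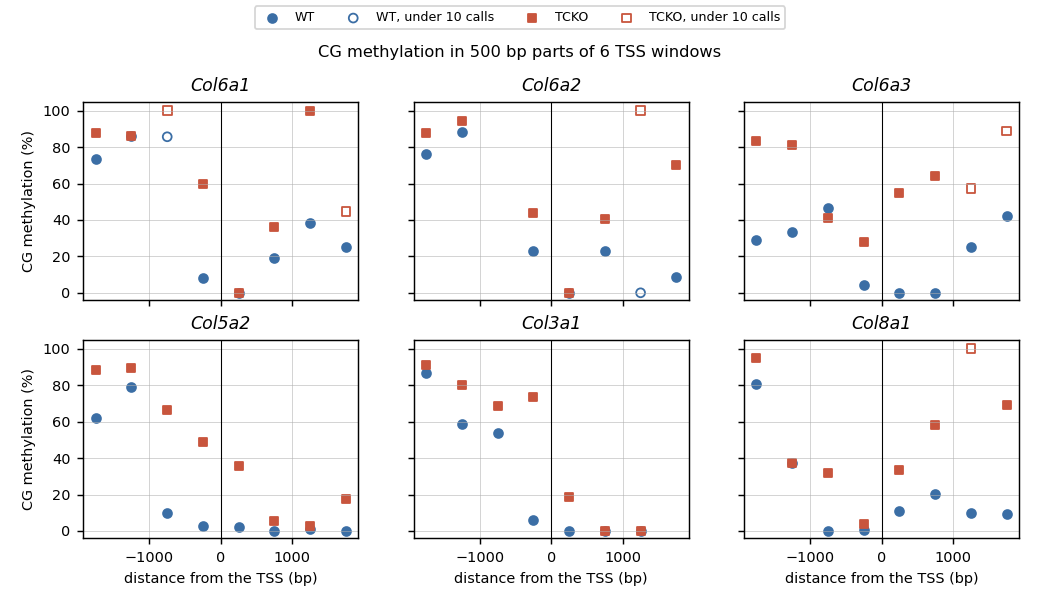
CG methylation (%) in 500 bp parts of the TSS windows of Col6a1, Col6a2, Col6a3, Col5a2, Col3a1 and Col8a1 against the distance from the TSS along the gene (bp), with WT as circles, TCKO as squares and open symbols for parts with under 10 calls. In Col6a3 the TCKO library was methylated on both sides of the TSS, while in Col6a1 and Col6a2 the first 500 bp downstream had no methylated call in either library.

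Among the FACIT genes, Col16a1 and Col20a1 were called. Col16a1 stood at 19.9% of 301 WT calls and 40.4% of 218 TCKO calls (a gain of 20.4 points, 95% interval 12.5 to 28.2, adjusted exact p = 4.50e-06). The 500 bp on either side of its TSS held no methylated call in either library (23 to 58 calls), and within 1 kb of the TSS the difference was 18.4 points and in the narrow window 8 points, neither of which passed. Col20a1 stood at 56.5% of 154 WT calls and 81.8% of 88 TCKO calls (a gain of 25.3 points, 95% interval 13.3 to 35.7, adjusted exact p = 3.91e-04), the fewest calls of any member in TCKO. Its call was lost within 1 kb of the TSS (15.4 points), in the 2 kb upstream (13.1) and in the narrow window (9.05). The FACIT gene Col9a3, a chain of the cartilage collagen type IX, had the largest negative value, from 53.2% of 216 to 37.9% of 195 calls, a difference of -15.3 points (adjusted exact p = 7.40e-03) that did not reach the minimum of 20. Its weakly methylated first 500 bp (9.09% in WT and 9.84% in TCKO) held 22 WT calls and 61 TCKO calls, and with depth-matched cytosines its difference was -2.84 points. The other FACIT genes were not called, at 12.6 points in Col19a1, 11.7 in Col9a1, 5.10 in Col22a1, 4.38 in Col14a1, 3.44 in Col12a1 and -3.13 in Col9a2, of which the last turned to 2.58 with depth-matched cytosines.

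No fibrillar gene was called in its TSS window (0 of 9), and their median difference was 2.51 points, against 14.6 in the 4 type IV genes examined (0 called) and 10.1 in the 26 others (6 called). Against the 3.85% of all genes called, 0 of 9 and 0 of 4 do not set these classes apart. With depth-matched cytosines the medians were 7.49, 12.7 and 6.59, so that fibrillar genes no longer stood below the others. The largest fibrillar difference was in Col5a2, from 11.7% of 649 to 30.04% of 536 calls (18.3 points, 95% interval 13.7 to 22.9, adjusted exact p = 2.43e-13), just under the minimum of 20. It passed within 1 kb of the TSS (30.6 points), in the 2 kb upstream (35.3), in the narrow window (53.6) and with depth-matched cytosines (20.1). The 500 bp upstream of Col5a2 went from 2.56% of 78 to 49.1% of 53 calls and the next 500 bp upstream from 10% of 30 to 66.7% of 27, which is the stretch of both bins printed above. Col3a1, the chain of type III collagen of skin and vessels, lies next to Col5a2 on chromosome 1 and stood at 40% of 355 WT calls and 54.4% of 342 TCKO calls. Its 500 bp upstream went from 6.25% to 73.3%, on only 16 and 15 calls, and its difference within 1 kb was 20.2 points, which passed.

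Col24a1 stood at 39.3% and 55.4% (16.1 points) and Col11a2, a cartilage chain, at 19.3% and 31.9% (12.6 points). The remaining fibrillar genes differed by 2.51 points in Col11a1, 1.65 in Col5a1, -0.53 in Col27a1, -5.14 in Col2a1, the main collagen of cartilage, and -8.81 in Col5a3. Col5a3 had the smallest fibrillar value, from 47.7% of 256 to 38.8% of 260 calls (95% interval -17.2 to -0.27, adjusted exact p = 0.106). With depth-matched cytosines Col27a1, Col2a1 and Col5a3 stood at 4.82, 0.33 and 6.86 points, so none of the 3 was negative in that setting.

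The type IV genes examined lie in head-to-head pairs, so their windows are not independent. Col4a1 and Col4a2, the chains of the common basement membrane, start 21 bp apart and share the same calls, at 19.9% of 553 in WT and 38.0% of 461 in TCKO (18.1 points, 95% interval 12.5 to 23.6, adjusted exact p = 4.86e-09). Col4a3 and Col4a4, chains best known from the kidney glomerulus, start 72 bp apart and stood at 50.4% and 61.6% (11.2 points) and at 50.4% and 59.9% (9.49 points, the smallest type IV value). In the 500 bp on either side of the Col4a1 TSS the levels stayed at 0% to 1.67% in both libraries, and the values that differed lay beyond, for instance 5.56% of 90 and 33.3% of 45 calls from 501 to 1000 bp upstream.

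Col28a1, which encodes a collagen with von Willebrand factor A domains, was the remaining called window, from 46.7% of 150 to 72.9% of 144 calls (a gain of 26.3 points, 95% interval 15.1 to 36.5, adjusted exact p = 4.22e-05). In the narrow window its difference was 36.4 points, but the few calls gave an adjusted p of 0.109. The network genes Col8a1 (9.20% of 804 and 25.1% of 814 calls, 15.9 points) and Col8a2 (43.8% and 60.7%, 16.9 points) had adjusted p-values below 0.05 without reaching 20 points. The transmembrane genes differed by 11.9 points in Col25a1, 6.43 in Col17a1, 2.10 in Col13a1 and -5.88 in Col23a1, the multiplexin genes by 13.9 in Col18a1, which holds the endostatin fragment, and 1.14 in Col15a1, the anchoring fibril gene Col7a1 by 3.72, and Col26a1 by -0.75. Col23a1 and Col26a1 turned to 3.82 and 3.42 points with depth-matched cytosines. The 5′ ends of Col25a1 and Col18a1 lie 49390 and 52843 bp upstream of the start of their principal annotated transcripts. The windows of these 2 genes therefore do not cover that start.

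Some windows passed only in another setting. In the 2 kb upstream alone these were Col18a1 (27.9 points), Col26a1 (24.1), Col4a1 (21.6), Col7a1 (21.1) and Col19a1 (20.02), beside Col5a2. Depth was uneven upstream of Col18a1, where the first 500 bp went from 12.3% of 57 WT calls to 41.7% of 12 TCKO calls. Its 500 bp parts upstream differed by -18.9 to 29.4 points, and the part of depth in its 27.9 points was not tested. In the narrow window Col26a1 passed with 42.6 points, but its parts did not show a gain of that size: the stretch from 501 to 1000 bp upstream differed by 11.6 points, and the 500 bp upstream held 28 WT calls and only 2 TCKO calls. The same uneven stretch also enters its 24.1 points in the 2 kb upstream. Within 1 kb Col6a6 passed with 25.4 points. With the mean of single cytosines, taken with the p of the pooled calls, Col8a1 passed with 21.7 points and Col6a6 with 28.7. Which members were called thus varied with the region read and the averaging. Of the 6 called windows, that of Col6a1 passed with every region and average run, at 20.03 points or more.

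The called windows were all CpG-poor. A TSS was counted as CpG-dense when the 500 bp on either side had an observed-to-expected CpG ratio of at least 0.6 and at least 50% GC. The 11 members with a CpG-dense TSS had 0 called windows and a median difference of 1.65 points, and the 28 CpG-poor members had 6 and a median of 12.2. Over all genes 3.55% of CpG-dense and 4.13% of CpG-poor windows were called, with medians of 5.01 and 4.51 points. Against so small a share, 0 of 11 does not set the CpG-dense members apart.

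In the gene bodies, levels were higher in TCKO in all 39 members, while over all genes 18188 of 21590 bodies were higher. Median levels of the members were 69.7% in WT and 80.4% in TCKO. Col9a2 turned to -1.13 points with depth-matched cytosines and to -0.53 without the first 2 kb. The differences ran from 0.12 to 16.5 points with a median of 8.77, against 5.67 over all genes. Gains of 10 points or more with an adjusted p below 0.05 were found in 15 members, against 14.8% of the 21625 genes tested. Members held a median of 76 testable bins against 15 over all genes, and more calls make the adjusted p easier to pass. Calls per gene were not matched. The 15 were 4 of 9 fibrillar genes, 1 of 4 type IV genes and 10 of 26 others, with class medians of 8.77, 8.66 and 8.84 points. No class stood apart by its median.

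The largest body difference was in Col5a1, which encodes the main chain of type V collagen, from 69.3% of 10087 WT calls to 85.8% of 8534 TCKO calls (16.5 points, 95% interval 15.4 to 17.7). It had one of the small TSS differences, so its window and its body did not go together. Differences of a like size were found in Col6a3 (15.5 points), Col12a1 (15.2), Col8a1 (15.01), Col3a1 (14.9), Col6a2 (14.7) and Col5a2 (14.2). The other called bodies were those of Col28a1 (13.9), Col8a2 (13.9), Col14a1 (12.1), Col9a1 (11.7), Col4a1 (11.3), Col16a1 (10.8, and 9.89 without the first 2 kb), Col24a1 (10.5) and Col6a6 (10.1).

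The smallest body differences were found in Col9a2, at 52.8% of 1232 and 53.0% of 995 calls (0.12 points, 95% interval -4.04 to 4.28, adjusted exact p = 0.985), in Col2a1, at 55.7% and 59.1% (3.37 points), and in Col7a1, at 76.7% and 80.4% (3.71 points). Other collagens known from cartilage had larger body differences, with 11.7 points in Col9a1, 8.77 in Col11a2, 7.66 in Col27a1, 6.55 in Col11a1 and 4.90 in Col9a3. Within the members as a whole, introns went from 70.1% to 80.2% (10.1 points) and coding exons from 75.5% to 81.9% (6.42 points). Exons were thus the more methylated part in WT and the part that differed less.

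**Figure D4:**
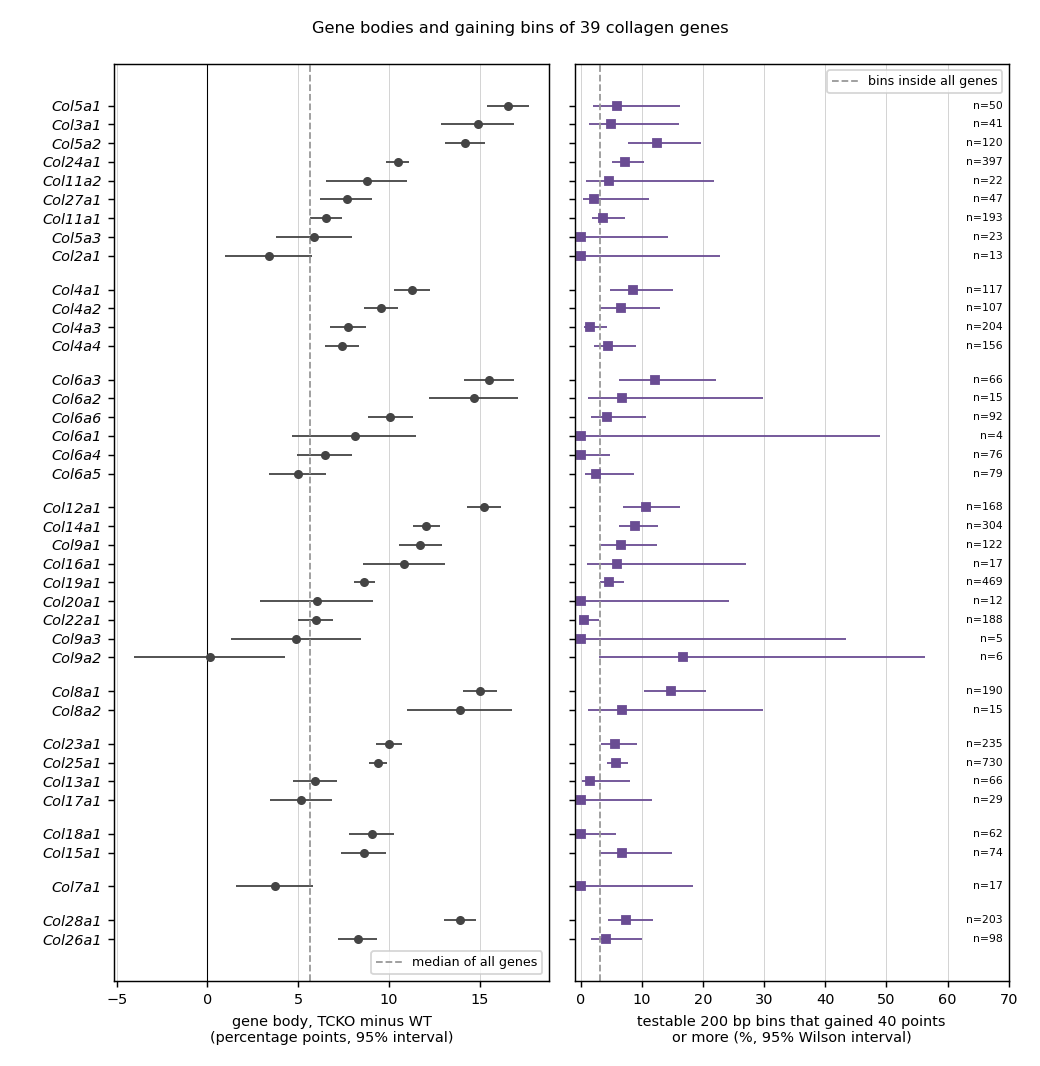
Left, gene-body difference (TCKO minus WT in percentage points, 95% interval) of the 39 genes, with the median of all genes dashed at 5.67. Right, the share (%) of testable 200 bp bins in each gene that gained, with 95% Wilson intervals, the number of testable bins as n, and the share over bins inside all genes dashed at 3.19. Col5a1 leads on the left and, among genes with 10 or more testable bins, Col8a1 on the right.

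Inside the members, 287 of 4832 testable bins gained (5.94%), against 3.19% of testable bins inside all protein-coding genes, and 1 lost, against 0.0245%. The median gaining bin stood at 25.5% of 43 calls in WT and 81.8% of 40 calls in TCKO and held 5 CG cytosines. At least 1 gaining bin was found in 30 of 39 members, against 36.5% of all genes with a testable bin, but a member had a median of 76 testable bins and a gene overall 15. By class, with bins pooled over genes, 6.40% gained in fibrillar genes, 4.62% in type IV genes and 6.04% in the others. Of the 58 fibrillar gaining bins, 29 lay in Col24a1 and 15 in Col5a2. As medians over genes the shares were 4.55%, 5.51% and 5.11%, so the pooled order was not kept. At a gain of 60 points or more the pooled order was not kept either, with 1.32%, 1.88% and 1.59%. Without the test 301 bins gained 40 points.

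The genes with the most gaining bins were long ones. Col25a1, a transmembrane collagen known from neurons and motor axons, had 42 of 730 testable bins gaining, Col24a1 29 of 397, Col8a1 28 of 190, Col14a1 27 of 304 and Col19a1 22 of 469. By share, among members with at least 10 testable bins, Col8a1 led with 14.7% (95% interval 10.4 to 20.5), followed by Col5a2 with 12.5% (15 of 120), Col6a3 with 12.1% (8 of 66), Col12a1 with 10.7% (18 of 168) and Col14a1 with 8.88%. Their intervals overlapped, so the order among these 5 is not resolved. At the other end, no bin gained in Col18a1 (0 of 62, which allows up to 4.84%), Col6a4 (0 of 76, up to 3.95%), Col17a1 (0 of 29), Col5a3 (0 of 23), Col7a1 (0 of 17), Col2a1 (0 of 13), Col20a1 (0 of 12), Col9a3 (0 of 5) and Col6a1 (0 of 4), and in Col22a1 it was 1 of 188. Apart from Col18a1 and Col6a4, these genes with no gaining bin had under 30 testable bins. The called windows of Col6a1 and Col20a1 were thus in genes whose bodies offered few bins.

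The other members lay between these, at 13 of 235 in Col23a1, 15 of 203 in Col28a1, 10 of 117 in Col4a1, 7 of 107 in Col4a2, 7 of 156 in Col4a4, 3 of 204 in Col4a3, 8 of 122 in Col9a1, 7 of 193 in Col11a1, 5 of 74 in Col15a1, 4 of 98 in Col26a1 and 4 of 92 in Col6a6. Counts of 1 to 3 were found in Col5a1 (3 of 50), Col3a1 (2 of 41), Col6a5 (2 of 79), Col27a1 (1 of 47), Col11a2 (1 of 22), Col6a2 (1 of 15), Col8a2 (1 of 15), Col16a1 (1 of 17), Col13a1 (1 of 66) and Col9a2 (1 of 6).

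**Figure D5:**
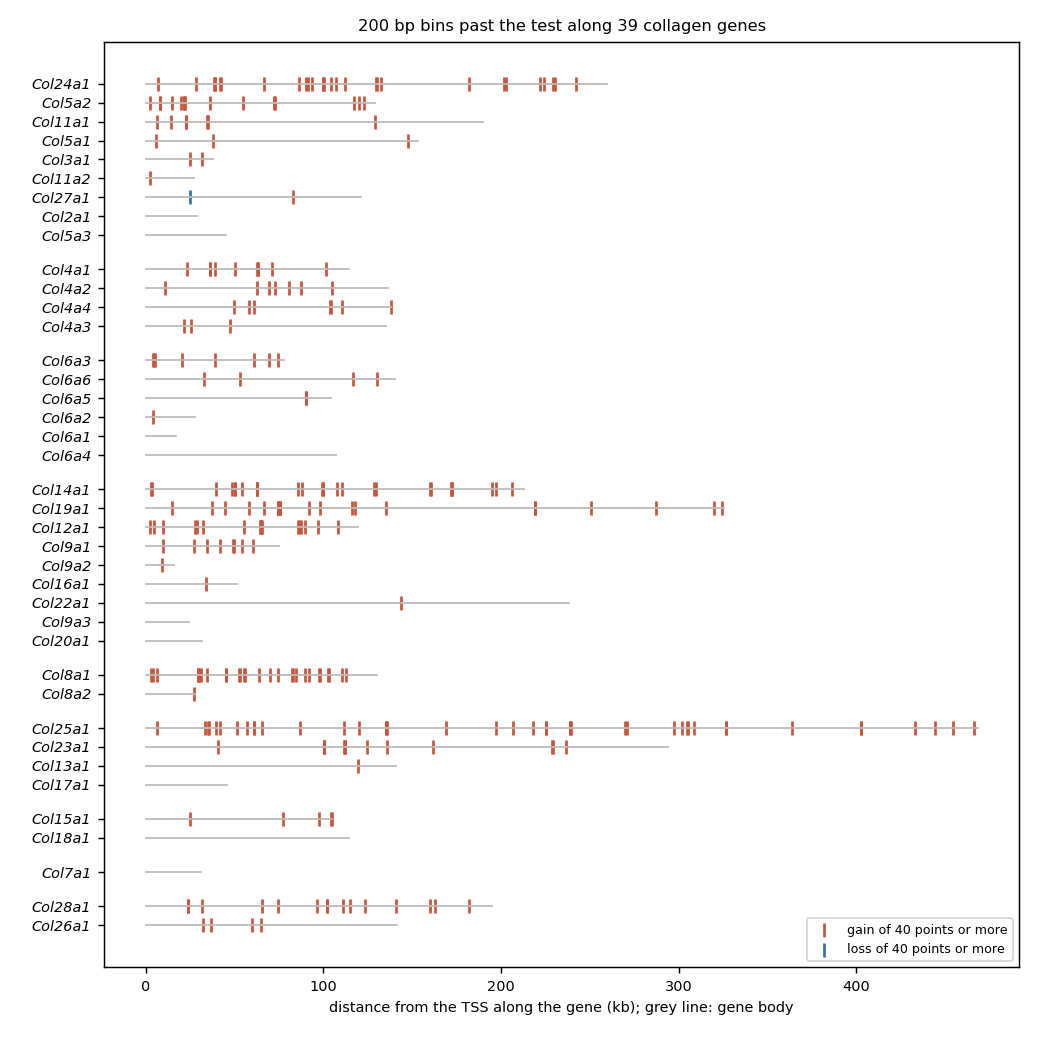
Position of each bin past the test along the 39 genes (distance from the TSS in kb, grey line for the gene body), with gains of 40 points or more in red and the loss in blue. Gaining bins were spread along the long genes, and the 1 losing bin lay in Col27a1.

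Most gaining bins stood alone. Joined where they touched, the 287 bins and the 4 upstream of a TSS, 291 in all, made 253 runs, of which 224 were a single bin. The longest run was 800 bp in intron 31 of Col12a1, a FACIT gene expressed in dense connective tissue and periosteum, at chr9:79653601-79654400, where 16.1% of 174 WT calls and 80.4% of 285 TCKO calls were methylated. Runs of 600 bp lay in intron 2 of Col23a1 (4.92% to 58.9% in one and 29.4% to 74.7% in another), intron 7 of Col24a1 (16.2% to 62.5%), introns 8 and 15 of Col14a1 (17.8% to 82.9% and 30% to 86.1%), intron 9 of Col19a1 (34.0% to 88.0%) and intron 2 of Col25a1 (15.4% to 79.5%). A bin from the Col12a1 run and one from the intron 8 run of Col14a1 are given because all their CpGs had no methylated call in WT.
Col12a1, chr9:79653801-79654000: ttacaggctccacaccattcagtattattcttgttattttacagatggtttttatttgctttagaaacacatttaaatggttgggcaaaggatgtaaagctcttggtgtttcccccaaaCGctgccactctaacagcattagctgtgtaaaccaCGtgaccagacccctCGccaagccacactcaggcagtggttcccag
Col14a1, chr15:55370201-55370400: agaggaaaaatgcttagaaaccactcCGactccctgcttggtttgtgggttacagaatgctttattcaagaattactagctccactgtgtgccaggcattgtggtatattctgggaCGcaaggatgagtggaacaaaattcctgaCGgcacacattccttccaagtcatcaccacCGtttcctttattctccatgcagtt

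The Col12a1 bin went from 0 of 28 calls to 74.3% of 35, and its 3 CpGs stood at 58.3% to 90.9% in TCKO. The Col14a1 bin went from 0 of 34 calls to 80.8% of 52, and its 4 CpGs stood at 66.7% to 92.3%. A count of 0 in 28 or 34 calls still allows a WT level of up to 10.7% and 8.82%. Such limits are 3 counts of the total and, like all intervals here, cover counting error only. They also treat calls as independent. Single CpGs had 9 or 10 WT calls in the Col12a1 bin and 7 to 10 in the Col14a1 bin, and nearby CpGs can share reads.

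The single losing bin lay in intron 5 of Col27a1, a cartilage fibrillar collagen, and went from 79.3% of 29 to 37.5% of 32 calls (-41.8 points, adjusted exact p = 0.0288).
Col27a1, chr4:63239001-63239200: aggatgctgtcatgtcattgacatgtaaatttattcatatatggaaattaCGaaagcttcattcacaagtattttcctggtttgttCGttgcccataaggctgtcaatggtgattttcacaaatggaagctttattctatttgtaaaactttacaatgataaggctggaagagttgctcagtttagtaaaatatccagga

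Its 2 CpGs did not move together. The first CpG went from 12 methylated of 16 WT calls to 0 of 18 TCKO calls, while the second stood at 84.6% of 13 and 85.7% of 14. The loss therefore rested on 1 CpG. Bisulfite calls do not tell an unmethylated C from a T in the genome, and which was read at this CpG was not tested.

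Gaining bins came from the part of the genes that was low in WT, which the 40-point rule favours, since a bin above 60% in WT cannot gain 40 points. Of the testable bins of the members, 183 stood below 20% in WT, of which 57.9% gained, against 35.7% of such bins inside all genes. Of the 288 bins from 20% to below 40% in WT, 44.1% gained, against 33.8%, and of the 691 bins from 40% to 60%, 7.81% gained, against 6.29%. In each of these levels of WT methylation the share was thus higher in the members than over all genes. The bins were not matched for CpG content or distance from the TSS. By position, 8.35% of bins in intron 1, 5.77% in later introns and 2.39% in exons gained, against 3.89%, 3.04% and 1.96% over all genes. The 5′, middle and 3′ parts of the genes, of equal length, held 6.25%, 6.57% and 4.99%, against 3.40%, 3.23% and 2.91% over all genes, so the 3′ part was the lowest in both.

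Short strings of 4 families were counted on both strands of the bins as a description of their sequence. TGACTCA (AP-1) was in 8.71% of the gaining bins of the members and in 2.81% of their testable bins, AACCACA (RUNX) in 9.76% and 4.99%, CATTCCA (TEAD) in 7.67% and 3.91%, and ACAATGG (SOX) in 1.74% and 3.04%. Over the genome the gaining and testable bins held AP-1 in 8.57% and 3.03%, RUNX in 9.03% and 5.04%, TEAD in 5.58% and 3.21%, and SOX in 1.84% and 2.90%. The collagen bins thus lay close to the genome-wide shares for AP-1, RUNX and SOX. Just inside the 40-point minimum were a Col24a1 bin (0% to 40%), a Col14a1 bin (40% to 80%) and a Col8a1 bin (52.3% to 92.3%), and just outside a Col16a1 bin (38.1% to 78%), a Col12a1 bin (47.6% to 87.5%, which also missed the adjusted p) and a Col25a1 bin (57.7% to 97.6%).

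Collagen chains need enzymes, chaperones, proteinases and receptors, and 36 such genes were examined in the same way. This list was also chosen with earlier results of these data known, so its shares against all genes are a description. In the TSS windows of these genes 7 of 36 gained 20 points or more, against 3.85% of all genes, and none lost as much. With pooled calls 33 were higher in TCKO, while over all genes 16479 of 21590 were higher. The median difference was 8.17 points, against 4.72 over all genes. Of 17 genes for hydroxylation and folding, 3 were called: Plod2, a lysyl hydroxylase, went from 24.04% to 61.1% (37.0 points), P4ha3, a prolyl 4-hydroxylase chain, from 43.0% to 69.5%, and Colgalt2, a collagen galactosyltransferase, from 16.8% to 40.4%. Of 8 for export and cleavage, Adamts14, a procollagen N-proteinase, was called (6.12% to 38.2%). Of 5 cross-linking genes, Loxl1 was called (13.5% to 37.8%), and of 6 receptors, Itga10 (56.1% to 79.7%), a collagen-binding integrin chain, and Ddr2 (8.56% to 35.5%), a receptor tyrosine kinase for fibrillar collagen. These 7 windows rest on pooled calls in the main setting only. Other windows and averages, and depth-matched cytosines, were not examined for these 36 genes. In their bodies 12 of 36 were called, against 14.8% of all genes, with a median of 8.81 points against 5.67. Calls per gene were again not matched. Inside these genes 116 of 2300 testable bins gained (5.04%), against 3.19%. The median of the bodies thus lay close to that of the collagen genes, 8.77 points.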

How the data were processed

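WGBS of primary osteoblasts gave 1 WT and 1 TCKO library. Reads were mapped by the authors with BSMAP 2.74 against GRCm38, and those with a unique position were retained. The authors deposited raw counts, 1 row for each CG cytosine of either strand, of methylated calls and of all calls. Removal of duplicate reads was not given in the sources used here, so intervals (95% Wilson for levels, Newcombe for differences) and p-values cover counting error only. Calls of nearby CpGs from the same read were counted as independent. Depth is given in the report.

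Calls were pooled over TSS windows (2 kb on either side of the 5′ end), gene bodies (GENCODE M21) and 200 bp bins assigned to genes by midpoint, and compared by 2-sided Fisher exact tests, whose p-values were adjusted (Benjamini-Hochberg) over all protein-coding genes with at least 20 calls in each library, or over all 2487317 testable bins. Minimum gains were 20, 10 and 40 points. Medians over all genes use the 21590 genes tested in window and body. Named in full were called windows, the 5 members with the most and the highest shares of gaining bins, the extremes of each class, the 3 smallest bodies, bins in TSS windows, the longest runs and losing bins. The members, classes and pathway list were chosen with earlier results of these data known. Alternatives changed the window, averaging, depth, minimum gain and bins. In a test on simulated data for chromosome 19, independent calls were redrawn for both libraries at the pooled level of each bin. Of 200 bins below 40% raised by 55 points, 173 were recovered among 67006, with 1 other bin called. The simulated libraries differed only in the raised bins and shared no reads, so this does not measure false calls between real libraries. Sequences were read from the RefSeq GRCm38.p6 genome. RNA-seq and ATAC-seq were not analysed here. Tests ran in scipy 1.17.1 and numba 0.67.0 under Python 3.11.15, with tables in pandas 2.3.3 and numpy 2.4.6.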

Additional observations from a re-analysis of the deposited data

How the results depend on the processing

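The count of called TSS windows was 6 and became 10 with the 2 kb upstream alone (6.83% of all genes called), 3 with 1 kb upstream to 100 bp downstream, 20 with a minimum gain of 10 points (23.6% of all genes) and 22 with the adjusted p alone (37.9%). In the window to 100 bp downstream the 3 of 39 are 7.69%, no more than the 7.76% of all genes. The count of called gene bodies was 15 and became 34 with a minimum of 5 points (52.0% of all genes) and 38 with the adjusted p alone (64.4%). These shares depend on the calls per gene, which were not matched. The count of gaining bins was 287 and became 469 with a mean of at least 1 call per cytosine, 48 with at least 10, 177 with cytosines of 4 or more calls in both libraries, 576 with a minimum of 20 points and 76 with 60. The other 15 alternatives left these counts within 1.5 times. The share of gaining bins was higher in the members than over all testable bins of the genome under each alternative run, at 1.57% against 0.736% for 60 points and 11.9% against 6.22% for 20.

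The sign of single windows turned as follows, in points, for values that were not called in the main setting. Within 1 kb of the TSS, Col2a1 was 0.58, Col27a1 0.71, Col9a2 1.05, Col13a1 -1.12 and Col26a1 3.72. With the 2 kb upstream, Col27a1 was 5.31, Col6a4 -0.091, Col9a2 4.76 and Col26a1 24.1. With 1 kb upstream to 100 bp downstream, Col2a1 was 1.41, Col27a1 3.79, Col4a3 -5.58, Col6a4 -4.69, Col22a1 -6.02, Col8a2 -3.30, Col13a1 -2.14 and Col26a1 42.6. With the TSS of the principal transcript, Col26a1 was 0.52. With the mean of cytosine levels, Col2a1 was 1.71, Col5a3 7.47, Col27a1 4.86, Col9a2 7.09, Col23a1 3.80 and Col26a1 7.83. With depth-matched cytosines, chosen after seeing the data, Col2a1 was 0.33, Col5a3 6.86, Col27a1 4.82, Col9a2 2.58, Col23a1 3.82 and Col26a1 3.42, and the body of Col9a2 was -1.13; without the first 2 kb it was -0.53. Apart from those of depth, whose weights differ by construction, the cause was not tested.

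No paired analysis was possible because each genotype had 1 library. For the same reason no replicate was left out. Depth limits single CpGs and genes with few testable bins most.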
